A study of Mus musculus with 75 samples.

Results

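The genes described here encode the chains of collagens, laminins and integrins, followed across 5 groups of single cells from the adult mouse cochlea. They were chosen by symbol alone, from the rows of the count table named as collagen chains (Col, a number, a, a number, with 1 row left out), as laminin alpha, beta or gamma chains (Lama, Lamb, Lamc), or with a symbol beginning Itga or Itgb. The rule gave 85 of the 55291 genes of the table. They were 43 collagen genes, 11 laminin genes, 27 integrin subunit genes, and 4 genes whose symbols begin with Itgb but which do not encode integrin subunits (Itgb1bp1, Itgb1bp2, Itgb3bp and Itgbl1), which are described apart.

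RNA was measured by full-length sequencing of 75 cells that had been picked by hand, with 1 library per cell. The 17 WT_P30 OHCs (wild-type outer hair cells, OHCs) came from Slc26a5CreER/+; Ai9/+ mice, whose Cre sits in the Slc26a5 gene and switches on the red reporter Tdtomato, given tamoxifen at P20 and P21 and collected at P30, where P counts days after birth. The 16 WT_P60 SCs (wild-type supporting cells, mainly pillar and Deiters' cells) came from Fgfr3-iCreER+; Ai9/+ mice given tamoxifen at P30 and P31 and collected at P60. The other 42 cells were red cells of Fgfr3-Atoh1-Ikzf2-DTR mice, which carry the Fgfr3-iCreER+ driver, a CAG-LSL-Atoh1+ transgene, CAG-LSL-Ikzf2/+ with Tdtomato at Rosa26, and Slc26a5 DTR/+. Tamoxifen at P30 and P31 induced the transcription factors Atoh1 and Ikzf2 in supporting cells, diphtheria toxin (20 ng/g) at P36 acted on OHCs through the receptor placed in Slc26a5, and cells were collected at P60. The labels sort these 42 cells into 11 OHC-like cells, 16 nascent HCs (hair cells) and 15 SCs failing to become HCs. That sorting used the transcripts Myo7a and Slc26a5 measured in the same libraries, so those genes were not used as outcomes. All mice are labelled C57BL/6, and the 2 wild-type groups differ in age as well as cell type.

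Collagens are trimers of alpha chains, and laminins are heterotrimers of an alpha, a beta and a gamma chain. In the organ of Corti the sensory epithelium rests on a basement membrane built of laminin and collagen IV, and the tectorial membrane that covers it contains several collagens, collagen IX among them. Integrins are cell-surface heterodimers of an alpha and a beta subunit that bind these proteins and link them to the actin cytoskeleton through adaptors such as talin, kindlin and parvin.

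Levels are given as CPM, a gene's count in a cell times 1000000 over the cell's total count on genes, and a gene was called detected in a cell at 1 CPM or more. Total counts ran from 4264780 to 22934062 per cell, and the number of genes detected per cell averaged 4697 ± 493 (SD over cells) in WT_P30 OHCs, 6780 ± 686 in WT_P60 SCs, 6928 ± 1229 in SCs failing to become HCs, 8006 ± 664 in nascent HCs and 7955 ± 1646 in OHC-like cells. No 2 cells had identical counts. The labels name no animal, so each group was treated as 1 sample: no test across cells was run, SDs describe the cells sequenced, and intervals (95%, exact) cover counting error only. Induced cells carry library numbers of 5 series (A to E), whereas each wild-type group has a series of its own, so that series and cell type cannot be told apart for wild-type cells.

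The labelled types matched their markers only in part. The OHC markers Slc26a5, Ocm and Myo7a were detected in 0 of 16 WT_P60 SCs and together reached 13370 to 49570 CPM in WT_P30 OHCs. Atoh1 was at 322 CPM or more in all 42 induced cells against at most 5.78 CPM in WT_P60 SCs. Slc26a5 also reached 1 CPM in 3 of 16 nascent HCs, and Myo7a in 3 of 15 SCs failing to become HCs. At least 1 of 7 SC markers was detected in every WT_P60 SC, in every induced cell and in 5 of 17 WT_P30 OHCs (highest sum 588 CPM). Fgfr3 was in 11 of 11 and Ceacam16 in 9 of 11 OHC-like cells, with Gjb6 in none, and Sox10 was in 7 of 15 SCs failing to become HCs. Markers of other cell types were present in places, and their part in the results below was not tested. Of 5 mesenchymal markers, Pdgfra was detected in 15 of 17 WT_P30 OHCs and Lum in 1, with Dcn, Twist1 and Thy1 in none. In SCs failing to become HCs the fibroblast markers Lum and Dcn were each in 4 of 15 cells, and at least 1 was in 5. Lum reached 1871 CPM in cell 14 of that group, while Pdgfra, Twist1 and Thy1 were in none of its cells. No WT_P60 SC had any of the 5 markers. The haemoglobin genes Hba-a1 and Hbb-bs together reached 2191 CPM in OHC-like cell 2. In WT_P60 SCs at least 1 of 4 endothelial markers was found in 9 of 16 cells (summed level 0 to 311 CPM, with Cdh5 and Kdr in none) and at least 1 of 3 pericyte markers in 5 (0 to 221 CPM, with Kcnj8 in none), whereas no induced cell and no WT_P30 OHC had a pericyte marker. Neuronal markers (at least 1 of Tubb3, Snap25 and Nefl) were found in 16 of 17 WT_P30 OHCs, 12 of 16 nascent HCs, 9 of 11 OHC-like cells, 5 of 15 SCs failing to become HCs and 4 of 16 WT_P60 SCs. In the same order of groups, Snap25 was in 16, 10, 9, 2 and 0 cells. Tubb3 was in 2, 5, 2, 3 and 4 cells, and Nefl in 5, 0, 0, 1 and 0. Mbp, a myelin gene, was found in 9 of 11 OHC-like cells (median 60.8 CPM), 11 of 16 nascent HCs (median 20.4 CPM) and 2 of 15 SCs failing to become HCs, and in no wild-type cell. Macrophage markers and the inner hair cell marker Slc17a8 were found in at most 2 cells of a group. Calls were also made without OHC-like cell 2 and SC failing to become HC 14.

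Most of these genes were undetected or rare. Of the 85, 16 reached 1 CPM in no cell, among them Col1a2 and Col3a1 of fibrillar collagen, Col4a1 of the ubiquitous collagen IV, and the leukocyte integrins Itgb2, Itgam, Itgax and Itgad. The other 69 were detected in at least 1 cell, and 13 of them in at least 50% of the cells of a group. The 13 were the collagens Col4a5, Col9a2, Col18a1 and Col27a1, the laminin Lama5, the integrin subunits Itga3, Itgav, Itgb1, Itgb4 and Itgb8, and Itgb1bp1, Itgb3bp and Itgbl1. A 0 in this table does not by itself show absence: Ilk, an integrin-linked kinase gene used by most cells, is listed at 0 in all 75 cells, and 3450 exon bases of Itgam are shared with an overlapping gene model.

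**Figure D1:**
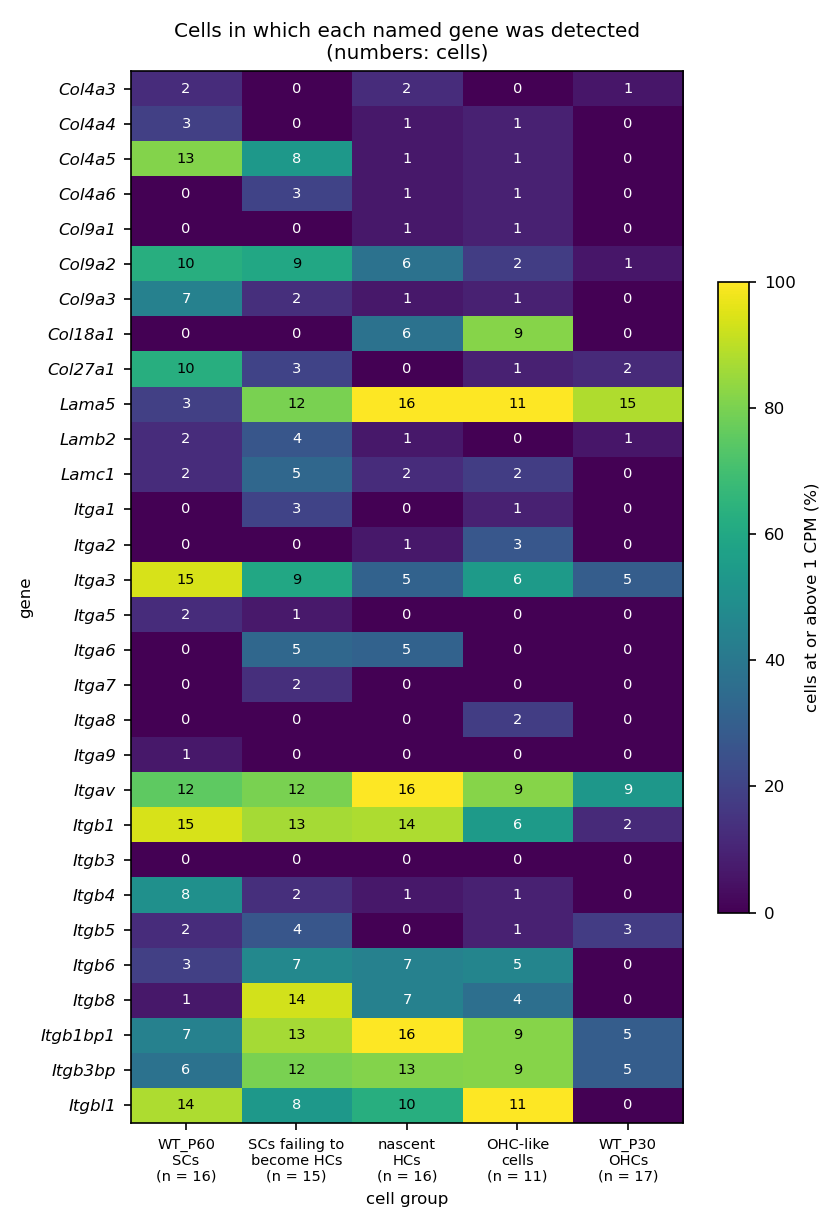
Percent of cells (colour) and number of cells (digits) at or above 1 CPM for the 30 named genes, rows, in the 5 groups, columns. Lama5 fills 4 of the 5 columns and is sparse in WT_P60 SCs, Itgb8 is densest in SCs failing to become HCs (14 of 15), and Col18a1 appears in OHC-like cells (9 of 11) and nascent HCs (6 of 16) and in no cell of the other groups.

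The cells of a group differed in how many chain genes they used. Out of 81 collagen, laminin and integrin chain genes, WT_P30 OHCs had 3.71 ± 1.36 detected per cell (range 2 to 6) and WT_P60 SCs had 8.81 ± 3.12 (range 4 to 16). SCs failing to become HCs had 10.5 ± 3.87, nascent HCs 7.81 ± 2.37 and OHC-like cells 8.82 ± 4.96. Wild-type OHCs were thus lowest, and they also had the fewest genes detected of any kind. The highest single cell was OHC-like cell 2 with 21 chain genes, which is also the cell with the haemoglobin counts and with 9654 genes detected, the most of the series.

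**Figure D2:**
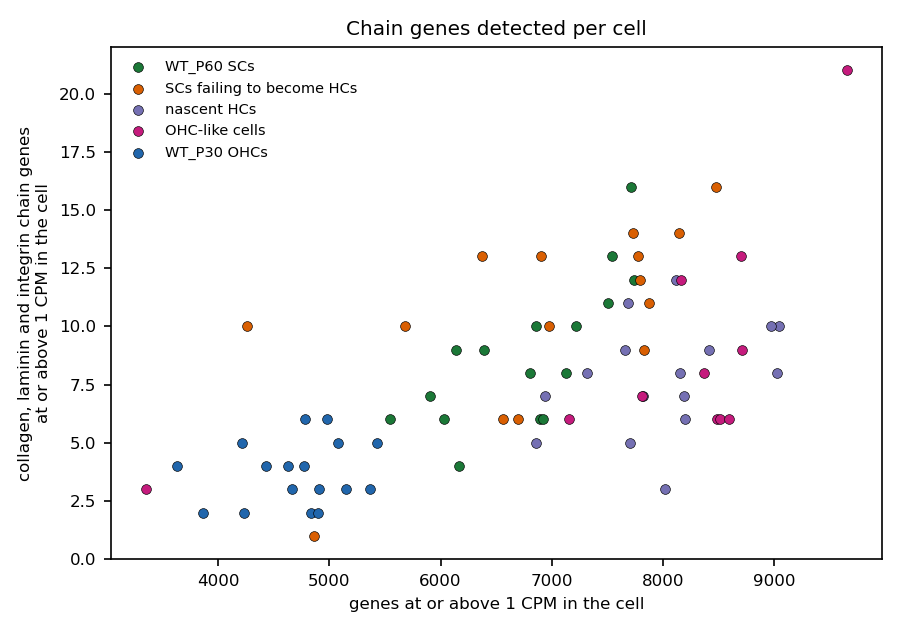
Collagen, laminin and integrin chain genes at or above 1 CPM (vertical axis) against all genes at or above 1 CPM (horizontal axis), 1 point per cell, coloured by group. WT_P30 OHCs lie at the lower left with 2 to 6 chain genes, and OHC-like cell 2 stands highest with 21.

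Differences between groups were called by size. A gene was called where its mean CPM was at least 4 times as high in one group, with a mean of at least 5 CPM and detection in at least 50% of the cells of that group. The members called were read against all 9552 genes that met the level and detection criteria in some group. With 13 members considered, most of the counts below lie within a few genes of the background.

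Between the wild-type cell types, WT_P30 OHCs had 1 of the 13 members higher than WT_P60 SCs (Lama5; background 8.19% of genes considered) and 5 lower (Col4a5, Col9a2, Itgb1, Itgb4 and Itgbl1; background 15.1%). The median log2 ratio (of mean CPM + 1, OHCs over SCs) was -1.61 over the 13 members and -0.05 over all genes considered. Of the 5 genes lower in OHCs, 2 encode collagen chains and 2 integrin subunits, and several members entered the 13 only through the group where they are high.

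Against WT_P60 SCs, OHC-like cells had 2 members higher (Col18a1 and Lama5; background 13.4%) and 3 lower (Col4a5, Col9a2 and Col27a1; background 9.1%). Nascent HCs had 2 higher (Lama5 and Itgb1bp1; background 13.1%) and 4 lower (Col4a5, Col27a1, Itga3 and Itgb4; background 8.08%). SCs failing to become HCs had 2 higher (Lama5 and Itgb8; background 7.32%) and 2 lower (Itga3 and Itgb4; background 5.48%). The median log2 ratios over the 13 members were 0.48, -0.04 and 0.41, beside 0.21, 0.25 and 0.15 over all genes considered. These 3 comparisons and the wild-type one share the 16 WT_P60 SCs, so their lists are not independent.

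OHC-like cells had 2 members higher than WT_P30 OHCs (Col18a1 and Itgbl1; background 15.2%) and 0 lower (background 5.14%). Compared with SCs failing to become HCs they had 1 higher (Col18a1; background 7.53%) and 4 lower (Col4a5, Col9a2, Itgb1 and Itgb8; background 5.01%). The member medians were 1.21 and -0.26, beside 0.34 and 0.02 over all genes considered.

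**Figure D3:**
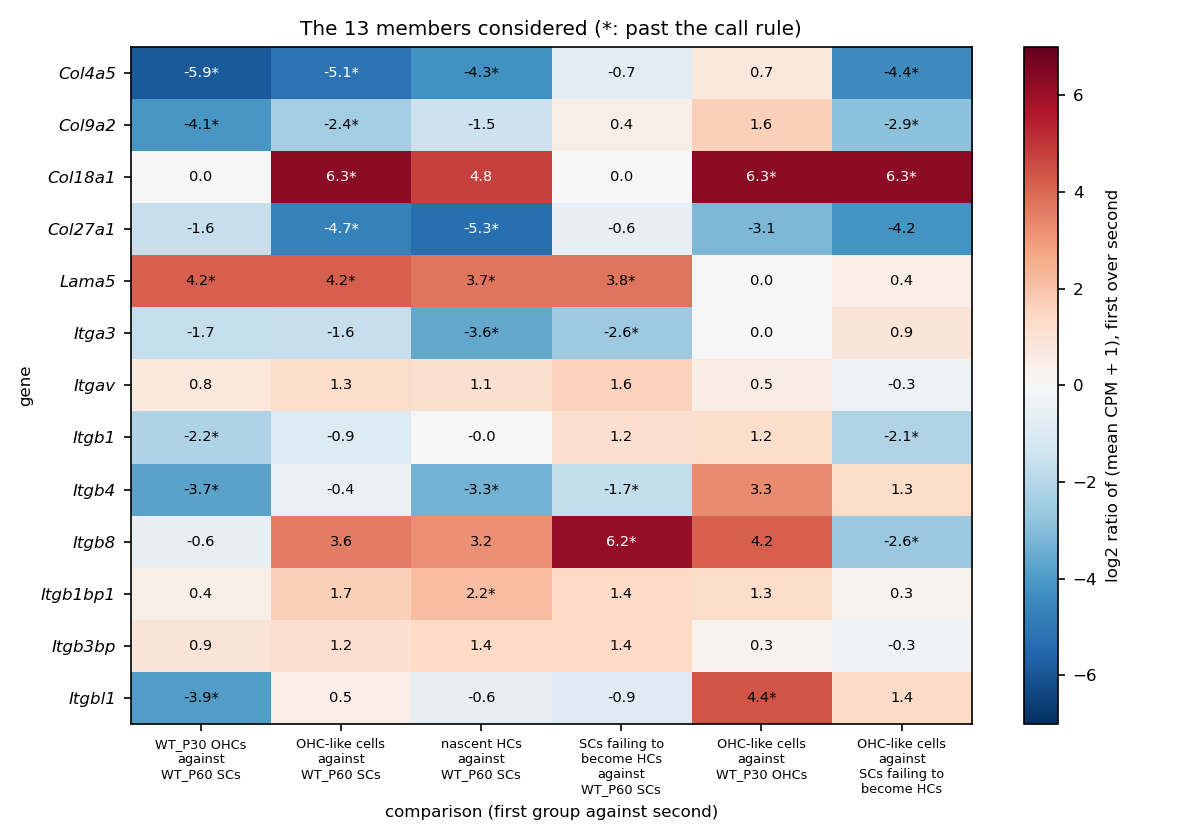
Log2 ratio of mean CPM + 1 for the 13 members considered (rows) in the 6 comparisons (columns), first group over second, with a star where the size rule was passed. Lama5 is starred in all 4 comparisons with WT_P60 SCs, and Col18a1 in the 3 comparisons of OHC-like cells.

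Lama5 encodes the laminin alpha 5 chain, a subunit of the laminins of adult epithelial basement membranes (ENSMUSG00000015647.9; GRCm38 chromosome 2, 180176373 to 180225859, minus strand, as in the GENCODE M21 annotation). In WT_P60 SCs it ran from 0 to 93.0 CPM with a median of 0 and was detected in 3 of 16 cells (interval 4.05 to 45.7%). Lama5 reached 1 CPM in 12 of the 15 SCs failing to become HCs (lowest 0, median 92.2, highest 529 CPM), in 16 of 16 nascent HCs (3.92, 79.9 and 248 CPM), in 11 of 11 OHC-like cells (51.1, 98.8 and 395 CPM) and in 15 of 17 WT_P30 OHCs (0, 87.1 and 549 CPM). The medians of the 4 other groups were thus close to each other and that of WT_P60 SCs was 0, but the ranges overlapped: SCs failing to become HCs and WT_P30 OHCs also held cells at 0, 3 WT_P60 SCs lay within the range of nascent HCs, and 1 within that of OHC-like cells.

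Mean Lama5 levels were 6.55 ± 23.1 CPM in WT_P60 SCs (687 counts in all, Poisson interval 637 to 740), 101 ± 131 in SCs failing to become HCs, 99.4 ± 80.7 in nascent HCs, 137 ± 103 in OHC-like cells and 135 ± 166 in WT_P30 OHCs. The ratio to WT_P60 SCs was 20.7 for WT_P30 OHCs, 21.0 for OHC-like cells, 15.2 for nascent HCs and 15.4 for SCs failing to become HCs. The WT_P60 SC mean rests on cell 13 at 93.0 CPM: without the highest cell of each group, the log2 ratio moved from 4.19 to 5.98 for OHC-like cells and from 3.73 to 5.67 for nascent HCs. Neither kind of induced hair cell nor the cells that had not become hair cells lay apart from WT_P30 OHCs by more than the spread between cells. Among induced cells Lama5 was found in every series, from 3 of 4 SCs failing to become HCs in series A to 8 of 10 in series C.

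Because Lama5 was the only laminin gene in at least 50% of the cells of any group, the 250 bases before its RefSeq start are shown (RefSeq sequence on GRCm38.p6, minus strand, chr2:180225860-180226109), with capitals at each E-box (CANNTG, the core recognised by bHLH factors such as Atoh1) and each Ikaros-family core (GGGAA, or TTCCC on the other strand).
Lama5: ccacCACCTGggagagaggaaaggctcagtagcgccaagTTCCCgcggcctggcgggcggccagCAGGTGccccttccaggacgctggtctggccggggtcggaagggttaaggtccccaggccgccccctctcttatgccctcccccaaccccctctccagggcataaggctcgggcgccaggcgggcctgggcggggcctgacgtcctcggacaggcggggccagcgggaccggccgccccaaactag
The window holds 2 E-boxes and 1 Ikaros-family core. Either motif is common: 66.2% of the 32851 promoter windows of this length hold an E-box and 56.2% an Ikaros-family core, searching both strands. A match here is a description of letters and not a binding site.

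The chains that would complete a laminin with Lama5 were rarely seen in the same cells. Lamb2, a beta chain, was detected in 2 WT_P60 SCs, 4 SCs failing to become HCs, 1 nascent HC, 0 OHC-like cells and 1 WT_P30 OHC. Lamc1, the common gamma chain, was detected in 2, 5, 2, 2 and 0 cells of those groups in the same order. Of the Lama5-positive cells, 5 of 12 SCs failing to become HCs had both a beta and a gamma chain of any kind, but only 1 of 16 nascent HCs, 1 of 11 OHC-like cells and 1 of 15 WT_P30 OHCs did.

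SCs failing to become HCs had the most laminin genes detected per cell, with Lama5 counted. Their mean was 2.47 ± 1.30, against 0.75 ± 0.77 in WT_P60 SCs. It was 1.38 ± 0.62 in nascent HCs, 1.55 ± 1.04 in OHC-like cells and 1.18 ± 0.73 in WT_P30 OHCs. Lama5 itself was in 12 of 15 SCs failing to become HCs and 3 of 16 WT_P60 SCs. In at least 1 cell, 7 laminin genes were detected in SCs failing to become HCs and 6 in WT_P60 SCs. Lama2, the alpha chain of muscle and nerve basement membranes, was detected in 5 of 15 of them (highest 113 CPM), in 1 OHC-like cell (cell 2) and in no cell of the other groups. Lamc3 behaved otherwise, with 3 of 17 WT_P30 OHCs (highest 202 CPM) and no cell elsewhere. None of the laminin genes other than Lama5 met the detection criterion in any group, and Lama2 and Lamc3 were picked out after their values were seen. The fibroblast markers Lum and Dcn were each in 4 of 15 SCs failing to become HCs, and their part in the laminin counts of that group was not tested.

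Col18a1 encodes collagen XVIII, a basement membrane collagen and heparan sulfate proteoglycan whose cleaved end is endostatin (ENSMUSG00000001435.15; chromosome 10, 77052178 to 77166548, minus strand). No read fell on it in the 16 WT_P60 SCs or the 17 WT_P30 OHCs, and 2 reads did in the 15 SCs failing to become HCs (Poisson interval 0.242 to 7.22). It was detected in 6 of 16 nascent HCs (interval 15.2 to 64.6%; lowest and median 0, highest 236 CPM) and in 9 of 11 OHC-like cells (interval 48.2 to 97.7%; lowest 0, median 25.7, highest 207 CPM). All groups overlap at 0, and every cell above 1 CPM was an induced hair cell by its label. Mbp was found mainly in the same 2 groups (9 of 11 OHC-like cells and 11 of 16 nascent HCs), and its part in this result was not tested.

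Mean Col18a1 was 78.4 ± 83.9 CPM in OHC-like cells and 26.9 ± 60.5 CPM in nascent HCs. Set against a floor of 3 counts over all cells of the empty group, the OHC-like mean was 2943-fold the floor of WT_P60 SCs and 2761-fold that of WT_P30 OHCs. These ratios describe the cells sequenced and are not lower bounds for the cell types. By counting error alone, a share of 0 allows up to 19.5% of cells in WT_P30 OHCs and up to 20.6% in WT_P60 SCs. The gene was found in series B (4 of 6 nascent HCs, 4 of 5 OHC-like cells), D (2 of 4 and 3 of 3) and E (0 of 4 and 2 of 2), and in no cell of series A and C, which hold 14 of the 15 SCs failing to become HCs. Series and cell type are therefore partly tied for this gene.

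The 232 bases before the first annotated exon of Col18a1, on the minus strand at chr10:77166549-77166780 of GRCm38.p6, are shown because this collagen had no counts in either wild-type group. They are printed with the same capitals, of which there are none.
Col18a1: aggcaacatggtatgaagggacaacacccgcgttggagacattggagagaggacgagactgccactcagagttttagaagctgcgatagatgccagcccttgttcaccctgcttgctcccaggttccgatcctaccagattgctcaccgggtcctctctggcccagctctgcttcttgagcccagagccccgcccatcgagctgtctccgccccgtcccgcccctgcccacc
Another RefSeq start of this gene lies within annotated exon sequence and is not shown. The absence of these letters from this window says nothing about the factors.

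**Figure D4:**
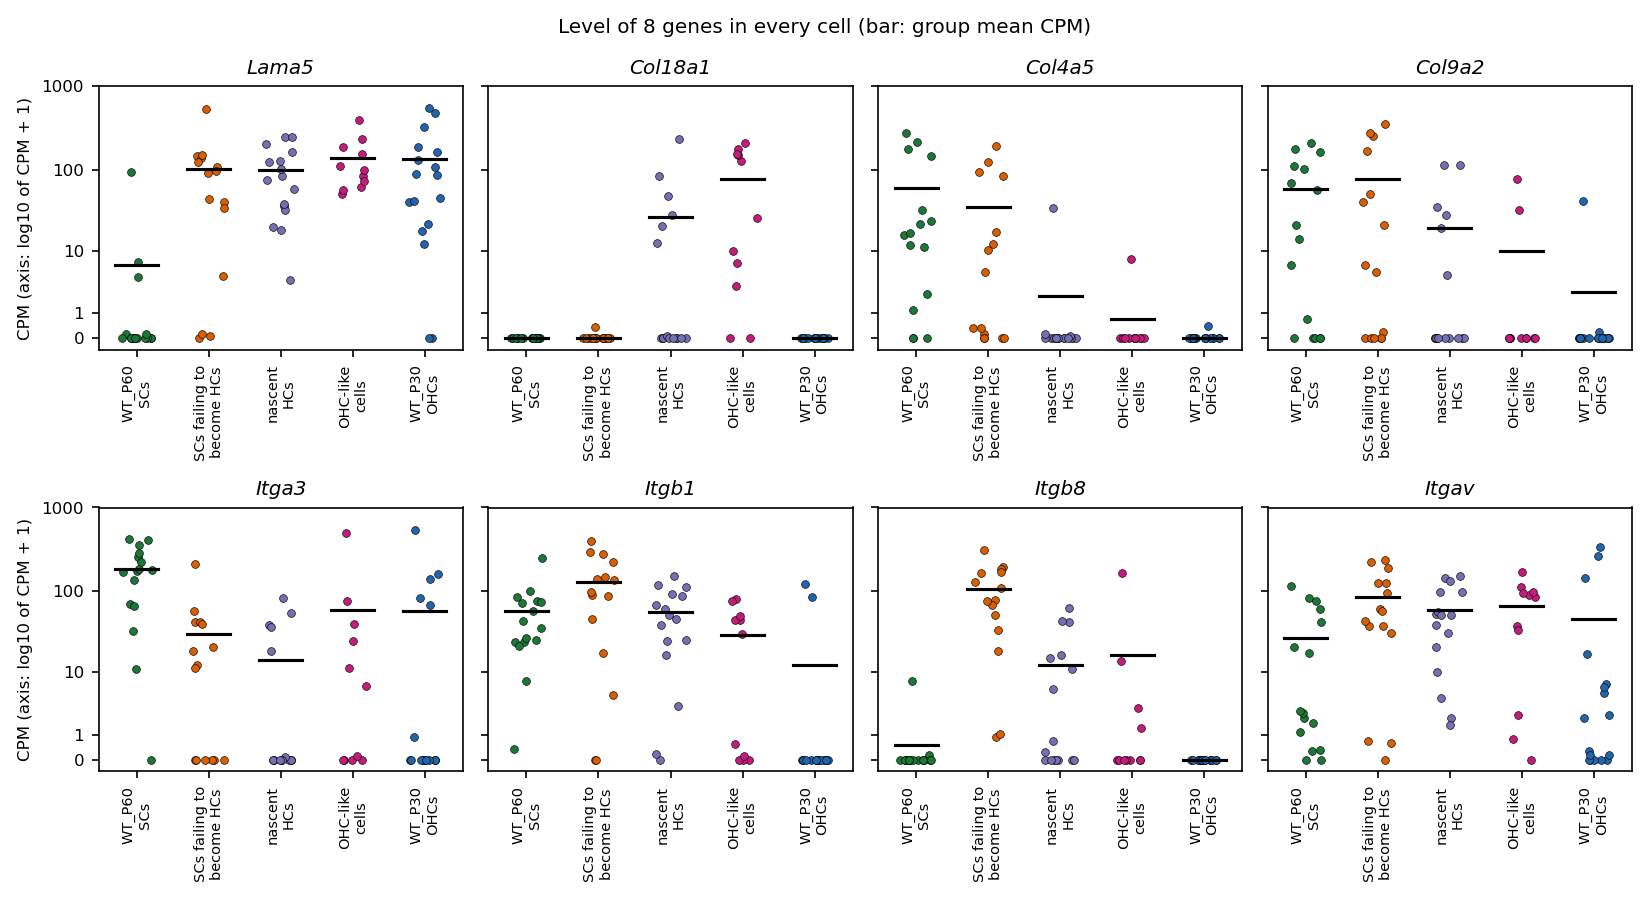
CPM of 8 genes in each of the 75 cells (1 point per cell, coloured by group; vertical axis on a log10 scale of CPM + 1; bars are group means of CPM). Lama5 sits near 100 CPM in 4 groups and at or near 0 in most WT_P60 SCs, Itgb8 is raised in SCs failing to become HCs, and Col4a5 and Itgb1 empty out towards WT_P30 OHCs.

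Col4a5 encodes the alpha 5 chain of collagen IV, which assembles with alpha 3 and alpha 4, or with alpha 6, into the specialised networks of basement membranes whose loss in Alport syndrome impairs hearing (ENSMUSG00000031274.16; chromosome X, 141475385 to 141689234, plus strand). It was detected in 13 of 16 WT_P60 SCs (lowest 0, median 16.4, highest 275 CPM) and in 8 of 15 SCs failing to become HCs (0, 5.21 and 190 CPM). Only 1 of 16 nascent HCs, 1 of 11 OHC-like cells and 0 of 17 WT_P30 OHCs reached 1 CPM. Supporting cells, wild-type or failing to convert, thus held nearly all of the Col4a5 signal.

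Mean Col4a5 was 59.7 ± 90.1 CPM in WT_P60 SCs, 35.8 ± 58.9 in SCs failing to become HCs, 2.16 ± 8.61 in nascent HCs and 0.71 ± 2.37 in OHC-like cells, and the 17 WT_P30 OHCs had 3 counts in all (Poisson interval 0.619 to 8.77). WT_P60 SCs were 27.6-fold above nascent HCs and 83.6-fold above OHC-like cells. SCs failing to become HCs were 50.1-fold above OHC-like cells. The 2 supporting cell groups differed by less than the spread between their cells.

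Its partner chains did not follow it. Col4a3 was detected in 2 and Col4a4 in 3 of the 16 WT_P60 SCs, all of them Col4a5-positive, and in none of the 15 SCs failing to become HCs. Col4a6 lies head to head with Col4a5, with 1343 bases between their RefSeq starts on chromosome X. It was in 0 of 16 WT_P60 SCs with no count at all, but in 3 of 15 SCs failing to become HCs, at 46.7 to 95.3 CPM. It was also in 1 nascent HC (10.2 CPM) and 1 OHC-like cell (11.6 CPM). All 13 Col4a5-positive WT_P60 SCs thus lacked Col4a6, as did every WT_P60 SC. Of the 8 Col4a5-positive SCs failing to become HCs, 2 had it. The upstream sequences of this pair are shown for comparison, from RefSeq on GRCm38.p6 and with the same capitals, outside annotated exons, Col4a5 on the plus strand at chrX:141475169-141475384 and Col4a6 on the minus strand at chrX:141474077-141474326.
Col4a5: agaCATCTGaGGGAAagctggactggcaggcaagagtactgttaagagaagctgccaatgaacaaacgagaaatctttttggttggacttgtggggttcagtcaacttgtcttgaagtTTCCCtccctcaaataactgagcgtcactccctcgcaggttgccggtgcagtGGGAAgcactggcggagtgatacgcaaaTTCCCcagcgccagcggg
Col4a6: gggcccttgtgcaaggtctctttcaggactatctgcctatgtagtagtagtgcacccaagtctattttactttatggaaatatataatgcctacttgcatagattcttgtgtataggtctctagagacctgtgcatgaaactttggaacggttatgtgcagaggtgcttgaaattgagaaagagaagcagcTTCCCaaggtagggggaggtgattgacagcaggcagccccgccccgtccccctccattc
The Col4a5 stretch holds 1 E-box and 4 Ikaros-family cores, and the Col4a6 stretch 0 and 1.

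Col9a2, a chain of the fibril-associated collagen IX of cartilage and the tectorial membrane, followed a like order (ENSMUSG00000028626.5; chromosome 4, 121039385 to 121055322). It was detected in 10 of 16 WT_P60 SCs (lowest 0, median 17.8, highest 210 CPM), 9 of 15 SCs failing to become HCs (0, 6.46 and 350 CPM), 6 of 16 nascent HCs, 2 of 11 OHC-like cells and 1 of 17 WT_P30 OHCs. The means were 58.5 ± 73.0, 78.3 ± 121, 19.7 ± 38.2, 10.0 ± 24.4 and 2.52 ± 10.3 CPM in that order. WT_P60 SCs were 23.3-fold above WT_P30 OHCs and 5.85-fold above OHC-like cells. The SCs failing to become HCs were 7.83-fold above OHC-like cells.

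The other collagen IX chains were patchier. Col9a3 was in 7 of 16 WT_P60 SCs (mean 52.9 ± 88.6 CPM), in 6 of them together with Col9a2, but in only 2 of 15 SCs failing to become HCs (5.73 ± 16.2 CPM), 1 nascent HC, 1 OHC-like cell and no WT_P30 OHC. Col9a1 was in 1 nascent HC and 1 OHC-like cell and had no count in either supporting cell group. Thus most Col9a2-positive SCs failing to become HCs, 7 of 9, had Col9a2 alone.

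Col27a1, a fibrillar collagen of developing cartilage, was detected mainly in WT_P60 SCs (ENSMUSG00000045672.15, chromosome 4). It was in 10 of 16 WT_P60 SCs (lowest 0, median 27.3, highest 101 CPM, mean 38.4 ± 40.3) and in 3 of 15 SCs failing to become HCs. It was in 1 of 11 OHC-like cells (cell 2) and in 2 of 17 WT_P30 OHCs (mean 11.9 ± 38.3 CPM). WT_P30 OHCs did not pass the size rule against WT_P60 SCs. They passed it as lower with TMM, at 2-fold, and without the highest cell of each group. In that last setting SCs failing to become HCs passed it as lower too. No count fell on Col27a1 in the 16 nascent HCs. Set against a floor of 3 counts over those cells, the WT_P60 SC mean was 2525-fold higher. That ratio describes the cells sequenced, since a share of 0 of 16 allows up to 20.6% of cells by counting error alone. The ratio to OHC-like cells was 82.4. The mean of SCs failing to become HCs, 25.8 ± 94.6 CPM, rested on cell 4 at 367 CPM, and their other 2 detected cells were at 8.33 and 11.5 CPM.

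Outside the named collagens, Col20a1 was the widest, in 7 of 16 nascent HCs and 5 of 11 OHC-like cells, and it was in 3 of 16 WT_P60 SCs, 3 of 15 SCs failing to become HCs and 2 of 17 WT_P30 OHCs. Col13a1, a transmembrane collagen, was in 7 of 16 WT_P60 SCs and 4 of 15 SCs failing to become HCs, and in 1 or 2 cells of the other groups. Both were picked out after their values were seen, and neither met the detection criterion with all cells. Against WT_P60 SCs, Col20a1 met the rule as higher in the OHC-like group without OHC-like cell 4, and also without OHC-like cell 2.

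Among integrin subunits the beta chain Itgb8 was detected in most SCs failing to become HCs and in few wild-type cells. It met the detection criterion in no other group. Itgb8 pairs with the alpha V subunit, and the dimer binds latent TGF-beta (ENSMUSG00000025321.14; chromosome 12, 119158022 to 119238802). Itgb8 reached 1 CPM in 14 of the 15 SCs failing to become HCs (interval 68.1 to 99.8%; lowest 0.896, median 79.2, highest 311 CPM), in 1 of 16 WT_P60 SCs (interval 0.158 to 30.2%; 7.62 CPM in that cell) and in no WT_P30 OHC, where no read fell on it. It was also in 7 of 16 nascent HCs (0, 0.458 and 62.9 CPM) and 4 of 11 OHC-like cells (0, 0 and 167 CPM). Single cells of all induced groups overlap, while 13 of the failing cells lay above the highest WT_P60 SC. The others, at 0.896 and 1.03 CPM, lay below it. How many of all genes considered showed as much was not counted, so this is not read as particular to Itgb8.

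The Itgb8 means were 106 ± 86.7 CPM in SCs failing to become HCs, 0.49 ± 1.90 in WT_P60 SCs, 12.4 ± 19.8 in nascent HCs and 16.9 ± 50.0 in OHC-like cells. SCs failing to become HCs were 219.5-fold above WT_P60 SCs and 6.32-fold above OHC-like cells. The OHC-like mean rested on cell 6 at 167 CPM, and leaving out the highest cell of each group moved their log2 ratio from -2.59 to -5.04. Within series A the gene was in 3 of 4 SCs failing to become HCs, within series C in 10 of 10, and in the 1 such cell of series E. It was in the 1 OHC-like cell of series A and in neither of the 2 of series E.

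**Figure D5:**
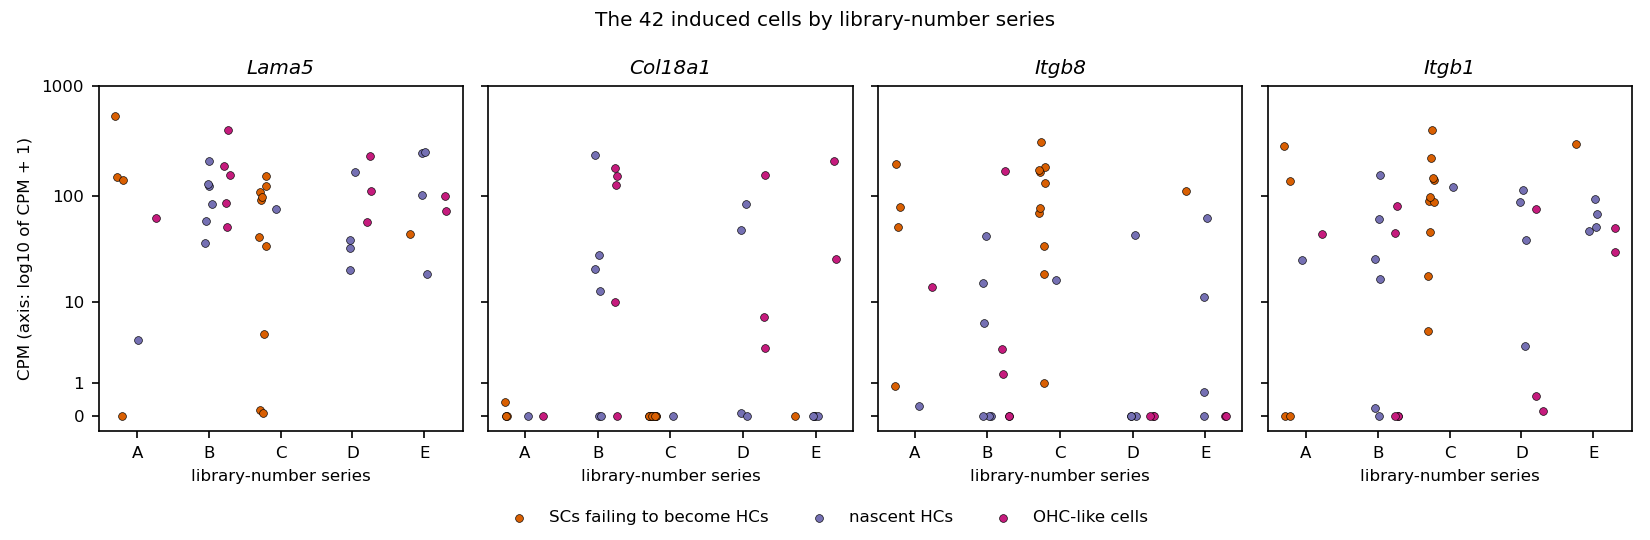
CPM of Lama5, Col18a1, Itgb8 and Itgb1 in the 42 induced cells, split by library-number series A to E (horizontal axis) and coloured by type, on a log10 scale of CPM + 1. Itgb8 is high in SCs failing to become HCs of series A, C and E, Lama5 is present in every series, and Col18a1 appears in B, D and E.

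Itgav, the alpha V subunit that receives Itgb8, Itgb6, Itgb5 and Itgb1 among others, was found in every group. It was in 12 of 16 WT_P60 SCs (lowest 0, median 2.74, highest 116 CPM), 12 of 15 SCs failing to become HCs (0, 57.8 and 236), 16 of 16 nascent HCs (1.58, 51.9 and 152), 9 of 11 OHC-like cells (0, 84.8 and 173) and 9 of 17 WT_P30 OHCs (0, 2.18 and 338). Its means, from 27.0 ± 37.6 to 84.5 ± 79.4 CPM, differed by less than the spread between cells, and it passed the size rule in none of the 6 comparisons, although at 2-fold it was called higher in all 3 induced groups than in WT_P60 SCs. Of its exon bases 5.90% are shared with a gene on the other strand. The 2 wild-type groups held mostly low values, and raising the detection threshold to 10 CPM left it in 43.8% of WT_P60 SCs and 23.5% of WT_P30 OHCs.

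The beta chains detected in Itgav-positive cells differed between groups, as did how often each beta chain was detected at all. Itgb8 was in 14 of 15 SCs failing to become HCs and 1 of 16 WT_P60 SCs, and Itgb1 in 13 and 15 cells. Co-detection beyond those rates was not tested. In SCs failing to become HCs all 12 Itgav-positive cells had Itgb8, and 11 had Itgb1. In WT_P60 SCs 11 of the 12 had Itgb1 and 1 had Itgb8. Nascent HCs had Itgb1 in 14 of 16, Itgb6 in 7 and Itgb8 in 7, OHC-like cells had Itgb1 in 6 of 9, Itgb6 in 5 and Itgb8 in 4, and of 9 Itgav-positive WT_P30 OHCs 6 had none of Itgb1, Itgb3, Itgb5, Itgb6 and Itgb8. Itgb6, an epithelial partner of Itgav, was in 3 WT_P60 SCs, 7 SCs failing to become HCs, 7 nascent HCs and 5 OHC-like cells and had no count in WT_P30 OHCs, and Itgb3 was at 1 count in the whole series.

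Itgb1, the beta subunit shared by most collagen and laminin receptors, was widespread in both supporting cell groups and in nascent HCs (ENSMUSG00000025809.15; chromosome 8, 128685654 to 128733200). It was in 15 of 16 WT_P60 SCs (lowest 0.359, median 40.1, highest 252 CPM), 13 of 15 SCs failing to become HCs (0, 97.1 and 399), 14 of 16 nascent HCs (0, 49.4 and 154), 6 of 11 OHC-like cells (0, 30.2 and 79.8) and 2 of 17 WT_P30 OHCs (0, 0 and 123). The order of the medians ran from failing supporting cells down to wild-type OHCs, but cells of every group overlapped.

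In means, Itgb1 was at 58.3 ± 59.6 CPM in WT_P60 SCs, 131 ± 121 in SCs failing to become HCs, 56.6 ± 46.2 in nascent HCs, 29.7 ± 31.5 in OHC-like cells and 12.3 ± 35.2 in WT_P30 OHCs. WT_P60 SCs were 4.75-fold above WT_P30 OHCs, and SCs failing to become HCs were 4.40-fold above OHC-like cells. Both ratios lie near the threshold of 4: the first was lost with DESeq2 size factors, and the second without OHC-like cell 4, or without OHC-like cell 2 and SC failing to become HC 14.

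Itga3, which with Itgb1 forms a laminin receptor of epithelia, led the wild-type supporting cells (ENSMUSG00000001507.16; chromosome 11, 95044474 to 95076801). At 32.6 CPM per kb of exon it had the highest level per length of any member in WT_P60 SCs, where 15 of 16 cells had it (lowest 0, median 179, highest 417 CPM). Its median was 12.6 CPM in SCs failing to become HCs (9 of 15 cells), 0 in nascent HCs (5 of 16), 6.47 in OHC-like cells (6 of 11) and 0 in WT_P30 OHCs (5 of 17). Wild-type supporting cells were thus the only group in which most cells exceeded 100 CPM.

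The mean of 186 ± 134 CPM in WT_P60 SCs was 12.8-fold above nascent HCs (14.5 ± 25.4) and 6.06-fold above SCs failing to become HCs (30.8 ± 54.4). OHC-like cells (59.5 ± 146 CPM) and WT_P30 OHCs (58.6 ± 136 CPM) did not pass the size rule, but in both 1 cell held much of the sum, 494 CPM in OHC-like cell 4 and 543 CPM in WT_P30 OHC 15. Without the highest cell of each group, Itga3 passed the rule in both comparisons, lower than in WT_P60 SCs. Itga3 and Itgb1 were detected together in 14 of 16 WT_P60 SCs, 8 of 15 SCs failing to become HCs, 4 of 16 nascent HCs, 3 of 11 OHC-like cells and 1 of 17 WT_P30 OHCs.

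Itga6, the other common laminin-binding alpha subunit, had a split pattern. It was in 5 of 15 SCs failing to become HCs and 5 of 16 nascent HCs and in no cell of the other 3 groups, where 0 to 3 counts fell on it in all. In nascent HCs the 5 positive cells ran from 134 to 1025 CPM, and 3 of them were the highest and belonged to series E. All 10 Itga6-positive cells also had Itgb1, which was in 13 of 15 SCs failing to become HCs and 14 of 16 nascent HCs. Itga6 was in under 50% of the cells of each group and did not meet the size rule.

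Itgb4, whose only partner is Itga6 and which forms the integrin of hemidesmosomes, was mostly found in cells without Itga6. It was in 8 of 16 WT_P60 SCs (lowest 0, median 0.902, highest 117 CPM; mean 12.4 ± 29.5), 2 of 15 SCs failing to become HCs, 1 of 16 nascent HCs, 1 of 11 OHC-like cells (97.2 CPM in cell 7) and no WT_P30 OHC. None of the 8 Itgb4-positive WT_P60 SCs had Itga6, which was in no WT_P60 SC. All 8 had Itga3, which was in 15 of 16 WT_P60 SCs. SC failing to become HC 12 had both Itgb4 (40.3 CPM) and Itga6 (50.7 CPM). The WT_P60 SC mean was 437-fold above a floor of 3 counts over the WT_P30 OHCs, a ratio that describes the cells sequenced only. It was 37.1-fold above nascent HCs and 4.04-fold above SCs failing to become HCs, the last call being lost without cell 14 of that group. All 3 calls were lost when the highest cell of each group was left out, which in WT_P60 SCs is cell 7 at 117 CPM. Of Itgb4's exon bases 7.66% are shared with a gene on the other strand, and strand was not given for the counting.

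The remaining alpha partners of Itgb1 were rare. Itga2, a collagen receptor, was in 3 of 11 OHC-like cells and 1 nascent HC, Itga1 in 3 SCs failing to become HCs and 1 OHC-like cell, and Itga7 in 2 SCs failing to become HCs. Itga5, the fibronectin receptor subunit, was in 2 WT_P60 SCs and 1 SC failing to become HC, Itga8 in 2 OHC-like cells and Itga9 in 1 WT_P60 SC. Among Itgb1-positive cells every induced cell and both WT_P30 OHCs had at least 1 alpha partner detected, as did 14 of 15 WT_P60 SCs. With or without Itgb1, an alpha partner was in 11 of 11 OHC-like cells and 16 of 16 nascent HCs, so these counts do not show pairing. Itgb5 was in at most 4 cells of a group and had no count in nascent HCs.

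Itgb1bp1, Itgb3bp and Itgbl1 carry the Itgb prefix without encoding subunits. Itgb1bp1 encodes a cytoplasmic protein that binds the tail of the beta 1 subunit. It was in 7 of 16 WT_P60 SCs, 13 of 15 SCs failing to become HCs, 16 of 16 nascent HCs (lowest 41.6, median 108, highest 179 CPM), 9 of 11 OHC-like cells and 5 of 17 WT_P30 OHCs, and its mean in nascent HCs (105 ± 38.5 CPM) was 4.65-fold that of WT_P60 SCs (22.6 ± 31.1 CPM). Of its exon bases 16.9% are shared with genes on the other strand. Itgb3bp, a centromere protein gene, had means from 12.0 ± 26.0 to 33.8 ± 30.9 CPM and passed the size rule in no comparison. It was in 6 of 16 WT_P60 SCs, 12 of 15 SCs failing to become HCs, 13 of 16 nascent HCs, 9 of 11 OHC-like cells and 5 of 17 WT_P30 OHCs. At 2-fold it was called higher in each induced group than in WT_P60 SCs. Without the highest cell of each group it passed the rule as higher in nascent HCs and in SCs failing to become HCs than in WT_P60 SCs.

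Itgbl1, which encodes a secreted protein with integrin-like repeats, was undetected in wild-type OHCs and found in every other group. It was in 14 of 16 WT_P60 SCs (lowest 0, median 12.5, highest 40.1 CPM), 8 of 15 SCs failing to become HCs, 10 of 16 nascent HCs and 11 of 11 OHC-like cells (3.01, 13.0 and 58.3 CPM), and no read fell on it in 17 WT_P30 OHCs. OHC-like cells and WT_P30 OHCs therefore did not overlap for this gene. How many of all genes considered also did not overlap between these groups was not counted, so the separation is not read as particular to Itgbl1. WT_P60 SCs were 494-fold and OHC-like cells 702-fold above a floor of 3 counts over the WT_P30 OHCs. Both ratios describe the cells sequenced only.

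Per length, the leading members changed from group to group. In WT_P60 SCs they were Itga3 (32.6 CPM per kb), Col9a2 (18.9), Itgb1 (14.3), Col9a3 (13.7) and Col4a5 (8.88), and in SCs failing to become HCs Itgb1 (32.0), Col9a2 (25.3), Itgb1bp1 (17.4), Itgb8 (9.63) and Lama5 (8.86). Nascent HCs had Itgb1bp1 (29.6), Itga6 (16.1), Itgb1 (13.9), Lama5 (8.73) and Itgb3bp (7.04), and OHC-like cells Itgb1bp1 (21.0), Lama5 (12.0), Col18a1 (11.2), Itga3 (10.4) and Itgb1 (7.28). WT_P30 OHCs had Lama5 (11.9), Itga3 (10.3), Itgb1bp1 (8.46), Itgb3bp (5.06) and Itgav (4.31). Collagens were thus among the leading members in both supporting cell groups and in OHC-like cells, and in neither of the other groups.

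The genes that work with these chains were followed as a list of 51, of which 25 were considered. The list was chosen with earlier results of these data known, so its counts beside the background are description only. Between WT_P30 OHCs and WT_P60 SCs 14 passed the rule, all higher in WT_P60 SCs (background 15.1% in that direction and 8.19% in the other). Of the 14, 6 were listed under integrin adaptors (Tln1, Vcl, Fermt2, Ptk2, Parva and Lims1). Fermt2 (kindlin-2) was in 16 of 16 WT_P60 SCs at 257 ± 148 CPM and had no count in WT_P30 OHCs, and Parva (alpha-parvin) was at 208 ± 147 CPM in 16 of 16 and in none of the WT_P30 OHCs at 1 CPM. Fermt2 was in 5 of 11 OHC-like cells (18.9 ± 28.7 CPM) and 11 of 15 SCs failing to become HCs (68.5 ± 72.3 CPM).

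Against WT_P60 SCs, 4 of the 25 were higher and 8 lower in OHC-like cells (background 13.4% and 9.1%), 7 and 8 in nascent HCs (13.1% and 8.08%), and 5 and 2 in SCs failing to become HCs (7.32% and 5.48%). The 4 higher in OHC-like cells and the 2 lower in SCs failing to become HCs are near the background. Bcam, a receptor for laminin alpha 5, was higher in all 3, at 119 ± 88.4 CPM in WT_P60 SCs, 872 ± 1015 in SCs failing to become HCs, 487 ± 465 in nascent HCs and 562 ± 465 in OHC-like cells, and it had no count in WT_P30 OHCs. Pxn (paxillin) and Timp2, an inhibitor of matrix proteases, were also higher in all 3, and Timp2 had no count in WT_P60 SCs. Mmp14, a membrane protease that cuts collagen, and Loxl2, a collagen cross-linking enzyme, were lower in all 3.

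OHC-like cells had 8 of the list higher than WT_P30 OHCs, among them Tnc, Bcam, Ddr1 (a collagen receptor), Vcl and Parva, and 0 lower (background 15.2% and 5.14%). They had 0 higher and 3 lower (Plod2, Sparc and Parva) than SCs failing to become HCs (background 7.53% and 5.01%). The basement membrane genes Nid1, Nid2, Hspg2 and Agrn were not considered in any comparison, being in at most 3 cells of a group.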

How the data were processed

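Whole-number read counts per gene were deposited for 75 single cells, and per the labels and the study's methods the authors made them from full-length single-cell libraries without molecular identifiers using FastQC 0.11.9, Trimmomatic 0.39, HISAT2 2.1.0, StringTie 1.3.5 and HTSeq 0.10.0 on mm10. The strand setting and annotation release are not given in the sources used here. Total counts ran from 4264780 to 22934062 per cell.

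Each cell's counts were divided by its total on genes (the WPRE row, 0.0254% of counts, was left out) and multiplied by 1000000 (CPM). Gene positions and exon lengths came from GENCODE M21. Groups follow the labels. The labels name no animal, so each group counts as 1 sample and no test was run. A gene was called at a 4-fold ratio of mean CPM, with at least 5 CPM and detection (1 CPM) in at least 50% of cells of the higher group, the floor being 3 counts over a group. Log2 ratios used a pseudocount of 1 CPM. Intervals are exact Clopper-Pearson and Poisson, 95%, and cover counting error only. The rule was tested on simulated data.

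Genes are named where they were among the 8 highest members called in a direction, among the 5 highest per kb in a group, or known partners of these. The members, partner genes and cell type markers were chosen with earlier results of these data known. Alternatives used edgeR 4.0.16 (TMM) and DESeq2 1.42.0 size factors, summed counts, thinning, other thresholds and cells left out. Promoter sequences are from RefSeq, GRCm38.p6, and 23 of the 30 named genes matched. Some members and markers are not reported by name here.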

Additional observations from a re-analysis of the deposited data

How the results depend on the processing

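The numbers of members called in the 6 comparisons were 6, 5, 6, 4, 2 and 5 (each other group against WT_P60 SCs, starting with WT_P30 OHCs, next the OHC-like, then the nascent and last the failing cells; and OHC-like cells against WT_P30 OHCs and against the failing cells). Of 55 recomputed counts, 45 lay within 1.5 times of these. Without the filter on level and detection they were 38, 47, 41, 29, 35 and 39, which follows from admitting genes seen in few cells. At 2-fold in place of 4-fold, 9 were called for OHC-like cells and 8 for SCs failing to become HCs against WT_P60 SCs, and 4 for OHC-like cells against WT_P30 OHCs. Within library series A and E alone, OHC-like cells against SCs failing to become HCs gave 15, of which 4 were shared and Col9a2 was lost, from few cells. Leaving out OHC-like cell 2 and SC failing to become HC 14 was chosen after seeing the data; it lost Itgb4 and Itgb1 and gained Col20a1, in 1 comparison each. Of 1260 log2 ratios 1218 moved by less than the spread between cells, and 0 of the recomputed values changed sign after being called. TMM moved the median of all genes by 0.31 (log2) for OHC-like cells against WT_P30 OHCs, and DESeq2 size factors by -0.22. No paired analysis was possible because the numbers of the cells only name them and no test was run. Sequencing depth limits what a count of 0 shows, and ratios to the floor describe the cells sequenced only.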
